A study of Mus musculus with 12 samples.

Results

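Transcripts of 10 glycolytic enzymes were followed through a RiboTag experiment on mouse sensory neurons. The genes were chosen by name for their place in the pathway (Gpi1, Pfkl, Aldoa, Tpi1, Gapdh, Pgk1, Pgam1, Eno1, Pkm and Ldha) and matched by Ensembl identifier. Earlier results of these data were known at that choice, and other isozymes and the hexokinases were listed apart. All 10 were among the 9073 genes of the count table, and all 10 passed the filter on low counts that left 8312 genes for testing.

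Glycolysis splits glucose into pyruvate in the cytosol and yields ATP without oxygen. Its upper steps spend ATP to make and cleave a doubly phosphorylated sugar, and its lower steps recover ATP and NADH. Lactate dehydrogenase turns pyruvate into lactate and regenerates NAD+. Long axons depend on glycolytic ATP made locally as well as on mitochondria, and glia can pass lactate to them.

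RNA came from adult dorsal root ganglion (DRG) neurons of mice of genotype RPL22HA+/+;Advillin-Cre+. The RiboTag allele puts a haemagglutinin (HA) tag on ribosomal protein L22 in cells where Cre has acted, and the Advillin promoter drives Cre mainly in sensory neurons. Anti-HA immunoprecipitation (IP) retains RNA on tagged ribosomes, and Input is the lysate before it. Neurons had received AAV-shGpr151, a virus with a hairpin named for the orphan receptor Gpr151, or AAV-control, which gave the groups IP shGpr151, IP control, Input shGpr151 and Input control. All groups share the tagged allele, the Cre, a viral infection and, per the series design, an earlier sciatic nerve injury. The labels disagree on the material: the design speaks of neurons in culture and the extraction text of ganglia collected fresh.

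Each group had 3 columns of counts. Chi-square per degree of freedom ran between 0.981 and 1.05 over the 12 same-group column pairs, against 1.80 to 156 over the 54 pairs that cross groups. The columns of a group thus differed by little more than counting noise, and each group is treated as 1 library, the sum of its columns. No comparison therefore has a replicate check, and nothing in the labels says that columns came from separate animals or cultures. Library totals were 3285258 counts for IP shGpr151, 4245486 for IP control, 6148538 for Input shGpr151 and 6332991 for Input control, and in the same order a gene at the median had 88, 108, 30 and 32 counts. Gpr151, the named target, had 96, 65 and 89 counts in the columns of the IP library labelled shGpr151, against 107, 109 and 98 in IP control, a log2 ratio of -0.0018 (-0.25 to 0.24). In Input it had 4, 4 and 5 counts in the library labelled shGpr151, against 10, 8 and 6 in control, a log2 ratio of -0.86 (-1.96 to 0.17). Neither ratio was called. Since Gpr151 transcripts on ribosomes were at the control level, libraries are named by their labels and directions describe the libraries alone.

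A log2 ratio is of summed counts over library sizes scaled by the trimmed mean of M values (TMM), and its bracket is the 95% interval for counting error alone. A gene is called at an adjusted p under 0.05 (Benjamini-Hochberg, 8312 genes) from the quasi-likelihood F test of edgeR, fitted to the 12 columns. Such a call compares libraries, not conditions. Where columns are said to stand apart or not to overlap, they are columns of the same libraries and not replicates. That trait therefore reflects counting noise alone, and its share over all tested genes was not computed. CPM are counts scaled to the library total.

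**Figure D1:**
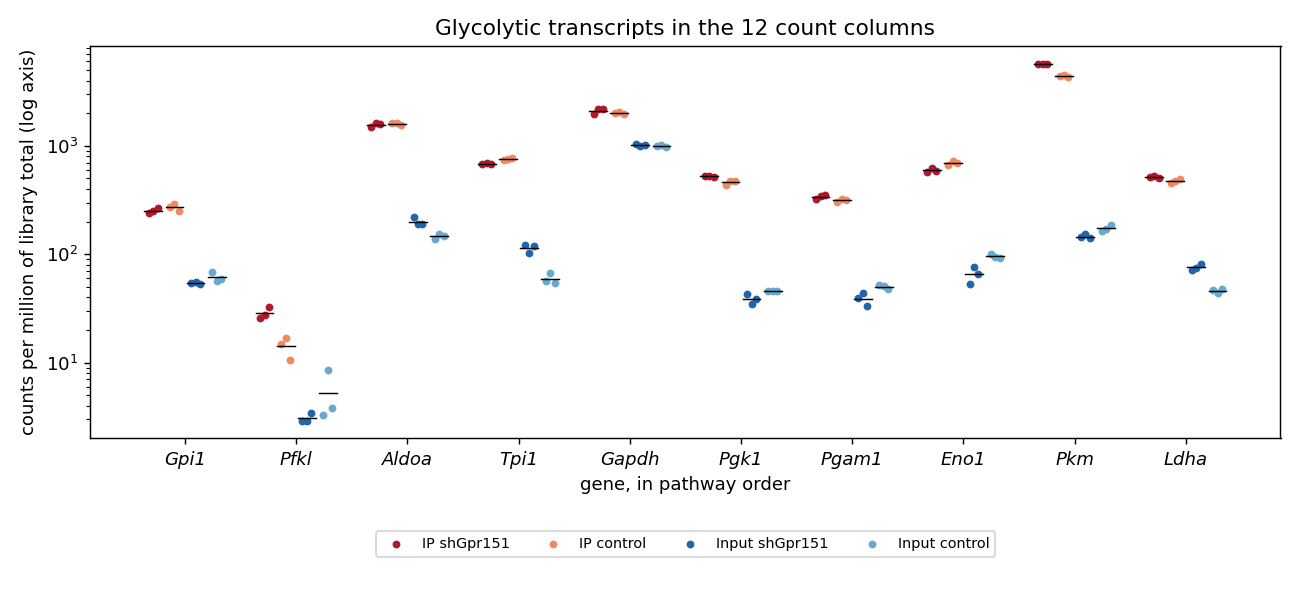
CPM (log axis) for the 10 glycolytic genes in pathway order, with 1 point for each of the 12 columns and a black bar at the level of the summed library. Each gene's points for IP lie above those for Input, the columns of a library lie close together except for Pfkl, and heights are not to be compared between genes because transcript length was not taken into account.

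Between the IP libraries, ribosome-bound Pkm, Pfkl and Pgk1 were higher in the one labelled shGpr151, and Tpi1 and Eno1 were lower. That is 3 of 10 called higher and 2 called lower, with 5 not called. Of all tested genes 3.72% were called higher and 4.97% lower (5.06% and 3.13% on total counts), and 9 of the 10 glycolytic genes had more counts in both IP libraries than a gene at the median. The median log2 ratio of the 10 was 0.045, beside 0.0035 over all tested genes.

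Pkm, pyruvate kinase of the last ATP-yielding step, had 6255, 6168 and 6160 counts in the columns of the IP library labelled shGpr151 and 6204, 6384 and 6137 in IP control. The counts alike in size came from libraries of unequal depth, so the level was 5656 CPM in the library labelled shGpr151 and 4411 CPM in control. Its log2 ratio was 0.32 (0.29 to 0.35), and the scaled columns did not overlap. The splice forms of Pkm are not told apart in gene counts.

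Pfkl, the liver-type subunit of phosphofructokinase, the committed and most regulated step, had 28, 30 and 36 counts in the IP library labelled shGpr151, against 21, 24 and 15 in IP control. Every column labelled shGpr151 was above every control column. The log2 ratio was 0.97 (0.49 to 1.47), the 1 member over 1.5-fold higher in this comparison, where 3.54% of tested genes were over 1.5-fold higher. It rests on sums of 94 and 60 counts and was not called by DESeq2.

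Pgk1, phosphoglycerate kinase, which makes the first ATP of the lower pathway, had 582, 583 and 568 counts in the library labelled shGpr151 and 619, 671 and 669 in IP control. Scaled to depth this is a log2 ratio of 0.15 (0.056 to 0.24). Its call was lost in each of the 6 fits that left out 1 column, where the ratio was 0.09 to 0.15.

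Eno1, the enolase that makes phosphoenolpyruvate, had 624, 679 and 646 counts in the library labelled shGpr151, against 933, 1019 and 973 in IP control, a log2 ratio of -0.26 (-0.34 to -0.18). Tpi1, which interconverts the triose phosphates, had 743, 761 and 741 counts, against 1037, 1060 and 1088, a log2 ratio of -0.18 (-0.26 to -0.10). For both genes the scaled columns of the libraries stood apart. The uncalled members were Ldha at 0.086 (-0.0079 to 0.18), Pgam1 at 0.072 (-0.044 to 0.19), Gapdh at 0.019 (-0.027 to 0.065), Aldoa at -0.075 (-0.13 to -0.022) and Gpi1 at -0.15 (-0.28 to -0.017). Aldoa was called lower in 3 of the 6 fits that left out 1 column, with ratios of -0.12 to -0.058 over the 6. No member was over 1.5-fold lower, where 2.35% of tested genes were. When the libraries were summed and replicates were assumed to vary by 10% (a biological coefficient of variation, BCV), edgeR called 0 members in either direction.

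In Input, which holds RNA of every cell in the lysate, Tpi1, Ldha and Aldoa were higher in the library labelled shGpr151, and Eno1, Pgam1 and Pkm were lower. In bulk RNA fewer cells of a type and less RNA per cell cannot be told apart. That is 3 of 10 called higher, beside 8.31% of tested genes, and 3 called lower, beside 8.66%. On total counts the same members were called, beside 8.99% of tested genes higher and 8.11% lower. The median log2 ratio of the 10 was -0.23, beside -0.066 over all tested genes.

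Tpi1 had 251, 210 and 242 counts in the columns of the Input library labelled shGpr151, against 120, 141 and 115 in Input control. The columns did not overlap between the libraries. The log2 ratio was 0.92 (0.74 to 1.11), a 1.90-fold difference, and Tpi1 was the 1 member still called with summed libraries and an assumed BCV of 10%.

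Ldha, the lactate dehydrogenase subunit favoured in glycolytic tissue, had 147, 154 and 167 counts in the library labelled shGpr151 and 99, 92 and 101 in Input control. Its log2 ratio was 0.70 (0.49 to 0.92). Aldoa, the aldolase that cleaves fructose bisphosphate, had 452, 392 and 388 counts, against 293, 323 and 312, a log2 ratio of 0.43 (0.31 to 0.55). Neither gene's columns overlapped between the libraries. Tpi1 and Ldha were over 1.5-fold higher, where 9.29% of tested genes were.

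Among the lower members, Eno1 had 110, 156 and 136 counts in the library labelled shGpr151, against 211, 200 and 197 in Input control, a log2 ratio of -0.58 (-0.76 to -0.39). Pgam1, the phosphoglycerate mutase, had 81, 90 and 68 counts, against 109, 108 and 102, a log2 ratio of -0.40 (-0.64 to -0.15). Pgam1 lost its call without the third column labelled shGpr151, where the ratio was -0.29. Pkm had 294, 312 and 290 counts, against 346, 363 and 396, a log2 ratio of -0.28 (-0.41 to -0.15). The columns of these genes did not overlap between the libraries.

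Gapdh, the dehydrogenase that yields NADH, held 2117, 2035 and 2069 counts in the library labelled shGpr151 and 2087, 2167 and 2067 in Input control. Its log2 ratio of -0.0019 (-0.053 to 0.049) was not called, and its columns overlapped. The mouse genome holds many processed Gapdh pseudogenes, and the sources used here do not say how reads were divided among such copies. Pgk1 at -0.26 (-0.51 to -0.0059) and Gpi1, the glucose phosphate isomerase, at -0.20 (-0.42 to 0.012) were not called. Pfkl had 6, 6 and 7 counts, against 7, 18 and 8, which left the gene uncalled at -0.78 (-1.67 to 0.081). It was the 1 member over 1.5-fold lower, where 13.5% of tested genes were, and without the second control column the ratio was -0.23.

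**Figure D2:**
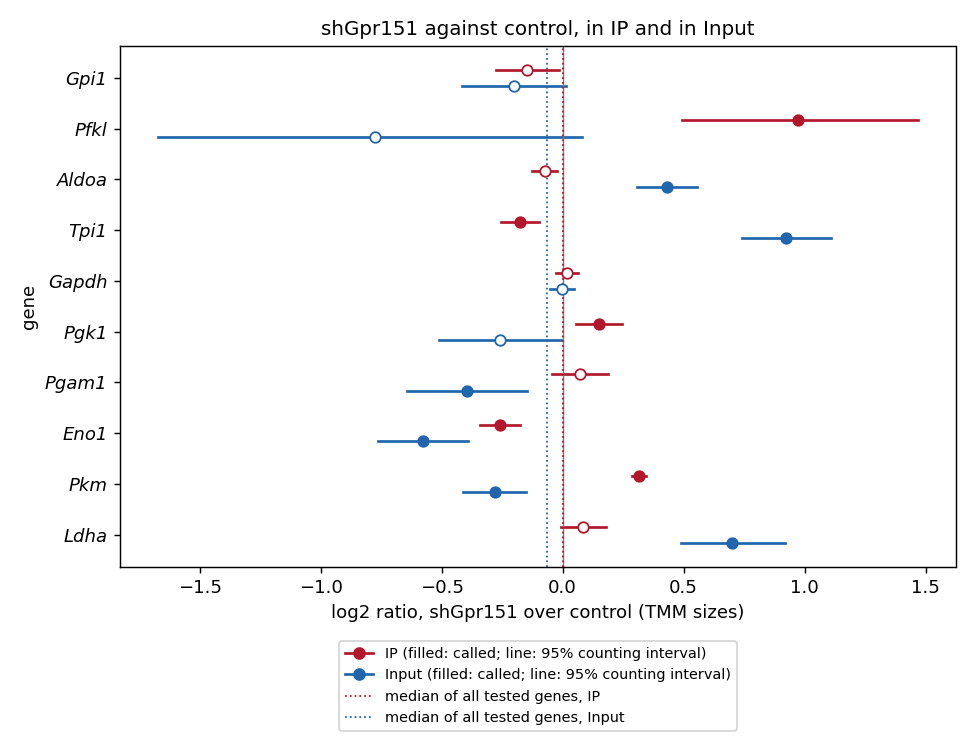
Log2 ratio of the library labelled shGpr151 over control (x axis, TMM sizes) for each gene in IP (red) and Input (blue), with 95% counting intervals, filled points for called genes and dotted lines at the median of all tested genes. Tpi1, at -0.18 in IP and 0.92 in Input, and Pkm, at 0.32 and -0.28, lie on opposite sides of 0.

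The promoters of the 3 members called higher in Input are shown, a choice that rests on those calls alone. They are the 250 bases before the RefSeq start in build GRCm38.p6, matched by symbol, and all 10 members had an entry. Tpi1 lies at chr6:124814159-124814408 on the minus strand, Ldha at chr7:46845554-46845803 on the plus strand and Aldoa at chr7:126800448-126800697 on the minus strand, with the first listed start used for Ldha and Aldoa. Capitals mark ACGTG or its reverse complement CACGT, the core of the element bound by hypoxia-inducible factors, which are known regulators of glycolytic genes. Both overlap in the E-box CACGTG.
Tpi1 promoter: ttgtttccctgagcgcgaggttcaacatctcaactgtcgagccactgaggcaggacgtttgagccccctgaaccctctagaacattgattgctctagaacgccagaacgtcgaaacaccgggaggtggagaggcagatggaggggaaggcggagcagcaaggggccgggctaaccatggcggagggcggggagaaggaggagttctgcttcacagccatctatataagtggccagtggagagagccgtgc
Ldha promoter: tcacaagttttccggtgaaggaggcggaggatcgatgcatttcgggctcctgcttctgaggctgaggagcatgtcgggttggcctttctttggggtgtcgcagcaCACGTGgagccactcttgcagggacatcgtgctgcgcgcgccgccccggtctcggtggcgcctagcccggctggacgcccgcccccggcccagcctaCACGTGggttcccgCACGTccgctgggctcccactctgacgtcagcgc
Aldoa promoter: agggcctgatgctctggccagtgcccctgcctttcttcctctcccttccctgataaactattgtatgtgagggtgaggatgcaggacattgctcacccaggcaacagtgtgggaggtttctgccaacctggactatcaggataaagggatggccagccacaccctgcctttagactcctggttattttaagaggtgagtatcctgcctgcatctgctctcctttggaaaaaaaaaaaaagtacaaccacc
Among these promoters the capitals occur in Ldha alone. Of all 10 members, 3 had ACGTG in this window at the first listed start (Ldha, Pgk1 and Pgam1). The other form of the core, GCGTG, is not marked and was in 4 (Pfkl, Gapdh, Pgam1 and Eno1). Of the 32851 listed promoters, which include further starts of a gene, 16.6% had ACGTG and 28.2% had GCGTG. The further listed starts of Aldoa, Eno1, Pkm and Ldha were not searched for the count of members. In Input Pgk1 and Pgam1 had log2 ratios of -0.26 and -0.40. Whether the element plays a part in any of these ratios was not tested.

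The Eno1 value needs its near copy beside it. Eno1b is a retrotransposed enolase gene close in sequence to Eno1, and long reads of the parent and the copy are hard to assign. In Input Eno1b had 150, 130 and 129 counts in the library labelled shGpr151, against 68, 66 and 61 in control, a log2 ratio of 1.09 (0.84 to 1.34), called and opposite to Eno1. The sum of both was 811 counts in the library labelled shGpr151 and 803 in control, a log2 ratio of 0.035 (-0.11 to 0.18), which was not called. Eno1b made up 50.4% of that sum in the library labelled shGpr151 and 24.3% in control. The sources used here do not say how the counting split reads between the copies, and its part in the lower Eno1 count was not tested.

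In IP, Eno1b had 175, 180 and 164 counts in the library labelled shGpr151, against 200, 140 and 191 in control, a log2 ratio of 0.29 (0.12 to 0.47), also called higher. There the sum was 2468 counts, against 3456, and its log2 ratio of -0.16 (-0.23 to -0.084) was still called lower. The lower enolase signal in the IP library labelled shGpr151 thus held for the sum, at a smaller size, and that in Input did not.

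**Figure D3:**
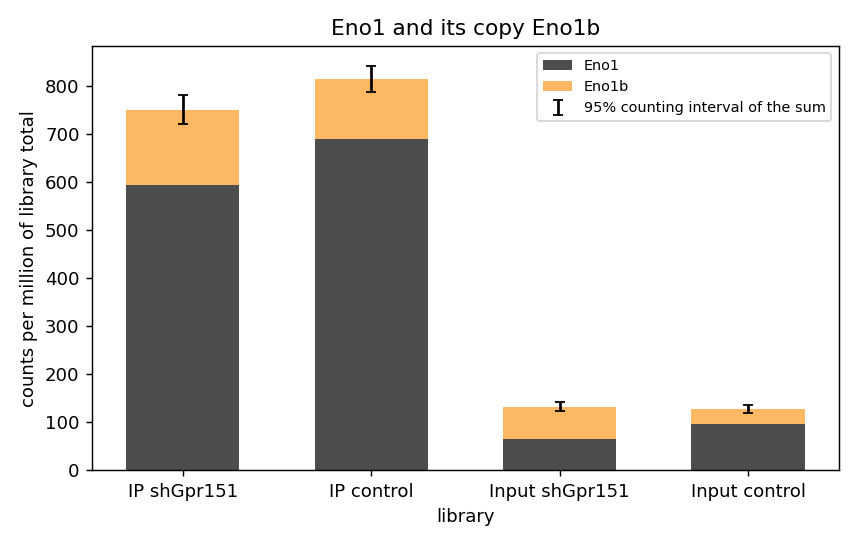
Stacked bars of CPM for Eno1 (grey) and its copy Eno1b (orange) in the 4 libraries, with the 95% counting interval of their sum. In Input the sums are 132 CPM in the library labelled shGpr151 and 127 CPM in control although the division between the copies differs.

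The pulldown comparison sets IP against Input and asks which transcripts were on tagged ribosomes of sensory neurons. In both treatments Pkm had the highest ratio among the members and Gapdh the lowest. In the libraries labelled shGpr151, 8 of 10 members were called higher in IP and 1 lower, beside 33.6% and 33% of tested genes. In control 7 were called higher and 2 lower, beside 32.5% and 32.8%. Median log2 ratios of the 10 were 0.85 with the label shGpr151 and 0.92 in control, beside 0.099 and 0.056 over all tested genes. With the label shGpr151, 6 members were over 1.5-fold higher in IP and 1 over 1.5-fold lower, where 36.8% and 33.7% of tested genes were. In control 6 were over 1.5-fold higher and 2 lower, where 34.8% and 33% of tested genes were.

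These ratios depend on the scale. TMM sizes shift each by -2.19 with the label shGpr151 and -2.17 in control relative to total counts. On total counts all 10 members were called higher in IP in both treatments, as were 82.3% and 83.8% of tested genes, while 11.7% and 11.1% were called lower, and the members' medians were 3.05 and 3.09. Directions here are therefore relative to that shift.

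Pkm had 18583 counts in IP and 896 in Input with the label shGpr151, a log2 ratio of 3.08 (2.99 to 3.18) or 8.48-fold. In control it had 18725 counts in IP and 1105 in Input, a log2 ratio of 2.49 (2.40 to 2.58) or 5.61-fold. Gapdh had 6912 counts in IP and 6221 in Input with the label shGpr151, a log2 ratio of -1.14 (-1.19 to -1.09). In control Gapdh had 8558 counts in IP and 6321 in Input, a log2 ratio of -1.16 (-1.21 to -1.11). On total counts Gapdh was higher in IP, at 1.06 and 1.01, the smallest ratio of the 10 in each treatment.

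Pgk1 had 1.57 (1.37 to 1.77) in the libraries labelled shGpr151 and 1.16 (0.98 to 1.34) in control. Aldoa had 0.77 (0.68 to 0.86) and 1.28 (1.18 to 1.38), Tpi1 0.39 (0.26 to 0.51) and 1.49 (1.33 to 1.64), and Ldha 0.57 (0.42 to 0.72) and 1.19 (1.01 to 1.37) in the same order. Eno1 had 0.99 (0.83 to 1.15) and 0.67 (0.54 to 0.80), and Pgam1 0.93 (0.73 to 1.14) and 0.47 (0.29 to 0.65). Gpi1 was near the median gene in both, at 0.021 (-0.16 to 0.21) and -0.035 (-0.20 to 0.13), and was not called.

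Pfkl had 94 counts in IP and 19 in Input with the label shGpr151, a log2 ratio of 1.02 (0.29 to 1.81), called higher. In control it had 60 counts in IP and 33 in Input, a log2 ratio of -0.73 (-1.37 to -0.075), called lower. The control call rests on the second Input column, which held 18 of the 33 counts, and the scaled columns of IP and Input overlapped. Without that column the ratio was -0.19 and not called, and it was also lost without the first or the third IP control column, at -0.68 and -0.47, and in DESeq2.

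**Figure D4:**
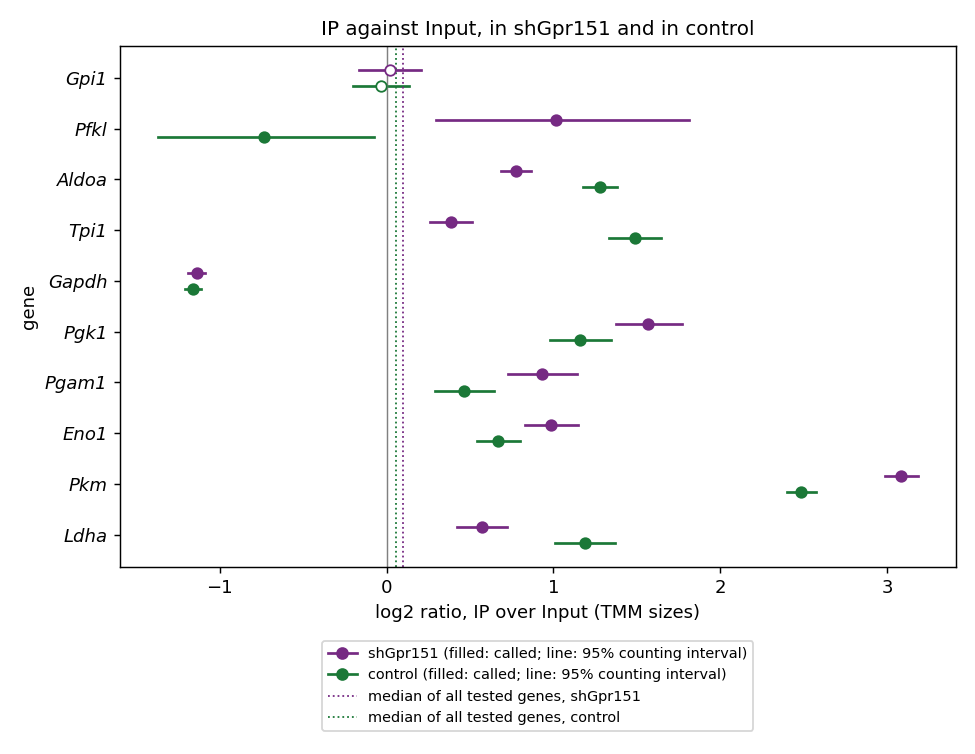
Log2 ratio of IP over Input (x axis, TMM sizes) for each gene in the libraries labelled shGpr151 (purple) and in control (green), with 95% counting intervals, filled points for called genes and dotted lines at the median of all tested genes. Pkm lies at 3.08 and 2.49, Gapdh at -1.14 and -1.16, and Tpi1 at 0.39 and 1.49.

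A view free of library scaling is each gene's share of the counts of all 10. Gapdh made up 17.2% (16.8 to 17.5, exact binomial interval) of the glycolytic counts in IP and 57.9% (56.9 to 58.8) in Input with the label shGpr151. In control its share was 18.3% (18.0 to 18.7) in IP and 59.3% (58.3 to 60.2) in Input. Pkm made up 46.1% (45.6 to 46.6) in IP and 8.33% (7.82 to 8.87) in Input with the label shGpr151, and 40.1% (39.6 to 40.5) in IP and 10.4% (9.79 to 10.96) in Input in control. The log2 ratio of IP over Input was larger for Pkm than for Gapdh by 4.22 (4.11 to 4.33) with the label shGpr151 and by 3.65 (3.55 to 3.75) in control. With Gapdh left out, Pkm made up 55.6% in IP and 19.8% in Input with the label shGpr151, and 49.1% in IP and 25.4% in Input in control.

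**Figure D5:**
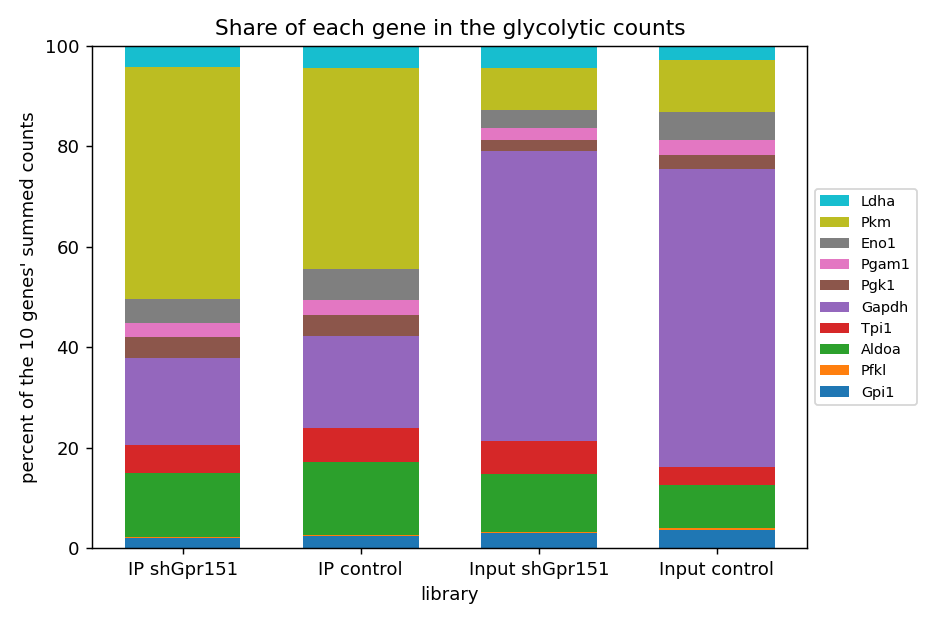
Stacked bars of each gene's percent of the summed counts of the 10 glycolytic genes in the 4 libraries. Pkm widens in both IP libraries, at 46.1% and 40.1%, and Gapdh in both Input libraries, at 57.9% and 59.3%.

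Whether the hairpin ratio differed between IP and Input was tested with the interaction term of the same edgeR fit. It was called for 8 of 10 members, 5 with a higher ratio in IP and 3 with a lower one, beside 5.41% and 8.82% of tested genes (on total counts also 5 and 3, beside 5.9% and 8.47%). In each direction 2 members differed by over 1.5-fold, where 19.9% and 13.4% of tested genes did. The ratio in IP minus that in Input was -1.10 (-1.30 to -0.90) for Tpi1, -0.62 (-0.85 to -0.39) for Ldha and -0.50 (-0.64 to -0.37) for Aldoa. For Pkm it was 0.60 (0.47 to 0.73). These 4 calls held in every fit that left out 1 column and in DESeq2. Such fits use columns of the same libraries and so replicate no condition.

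The other called members were less stable. Pfkl had 1.75 (0.81 to 2.69), a call lost without the second Input control column, at 1.21. Pgam1 had 0.47 (0.20 to 0.73), lost in 5 of 12 fits that left out 1 column, and Pgk1 0.41 (0.14 to 0.67), lost in 9. Eno1 had 0.32 (0.12 to 0.52), also lost in 9, and with Eno1b added the difference was -0.19 (-0.35 to -0.035) and not called. Gapdh at 0.021 (-0.047 to 0.089) and Gpi1 at 0.055 (-0.19 to 0.30) were not called. With summed libraries and an assumed BCV of 10%, none of the 10 was called.

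Other isozymes and the hexokinases of the same steps were set beside the members, 8 of a list of 20 being in the table. In IP over Input, 5 were called higher and 3 lower with the label shGpr151 (median 1.68), and 6 and 1 in control (median 1.05), beside the shares of tested genes given above for the members. Between the IP libraries 2 were called higher and 1 lower with the label shGpr151 (median 0.17), beside 3.72% and 4.97% of tested genes. Between the Input libraries 2 were called higher and 1 lower (median 0.11), beside 8.31% and 8.66%. Aldoc, the brain aldolase, had 283 counts in IP and 16 in Input with the label shGpr151, and 240 in IP and 13 in Input in control. Its ratio exceeded that of Aldoa by 2.08 (1.35 to 2.81) and 1.33 (0.52 to 2.14). Eno2, the neuronal enolase, exceeded the sum of Eno1 and Eno1b by 0.97 (0.64 to 1.31) and 0.40 (0.11 to 0.69). Against Eno1 alone the difference was 0.30 (-0.046 to 0.65) and 0.24 (-0.057 to 0.54), and both intervals included 0. Ldhb, the lactate dehydrogenase subunit favoured in oxidative tissue, fell short of Ldha, by -1.06 (-1.31 to -0.81) and -0.57 (-0.87 to -0.27). These differences between 2 genes do not depend on the library scale.

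Among phosphofructokinase subunits, Pfkp, the platelet type, exceeded Pfkl in IP over Input by 1.06 (0.24 to 1.87) with the label shGpr151 and by 1.92 (1.23 to 2.61) in control, and Pfkm, the muscle type, by 1.40 (0.43 to 2.37) and 2.20 (1.39 to 3.01). Hk1, the hexokinase docked on mitochondria in brain, was called lower in IP than in Input, at -0.68 (-0.96 to -0.40) and -0.41 (-0.66 to -0.16), and Hk2 higher, at 2.31 (1.53 to 3.21) and 2.51 (1.63 to 3.53). On total counts Hk1 too was higher in IP, at 1.51 and 1.76.

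Between the IP libraries, Aldoc was called higher with the label shGpr151, at 0.56 (0.31 to 0.82), and Hk1 lower, with 273 counts, against 443, a log2 ratio of -0.37 (-0.59 to -0.15). Eno2 at -0.016 (-0.18 to 0.14) and Ldhb at -0.16 (-0.32 to -0.0025) were not called. Between the Input libraries, Ldhb was called higher, with 318 counts, against 167, a log2 ratio of 0.95 (0.68 to 1.23). Pfkp was called lower there, with 56 counts, against 93, at -0.71 (-1.22 to -0.22). The difference between Ldhb and Ldha in Input was 0.25 (-0.094 to 0.59).

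Of 7 listed genes of glucose, lactate and pyruvate transport, 1 was called higher and 1 lower with the label shGpr151 in IP (median 0.11), beside 3.72% and 4.97% of tested genes, and likewise in Input (median -0.17), beside 8.31% and 8.66%. Slc2a1, the glucose transporter GLUT1, was higher in IP, with 855 counts, against 800, a log2 ratio of 0.42 (0.28 to 0.56). Slc2a3, the neuronal glucose transporter GLUT3, was lower in Input, with 1351 counts, against 1962, at -0.52 (-0.62 to -0.42). Mpc1, a subunit of the mitochondrial pyruvate carrier, was lower in IP at -0.26 (-0.37 to -0.15) and higher in Input at 0.36 (0.25 to 0.47). Of 6 pyruvate dehydrogenase genes 0 were called in IP (median 0.14) and 1 in Input (median -0.047), against the same shares, Dld, its E3 subunit, lower at -0.29 (-0.39 to -0.19). In IP over Input 3 transport genes were called higher and 4 lower with the label shGpr151, and 2 and 4 in control, beside 33.6% and 33% of tested genes and 32.5% and 32.8%. Slc2a1 was called higher, at 3.02 (2.58 to 3.50) with the label shGpr151 and 2.43 (2.02 to 2.88) in control. Slc2a3 was lower there on both scales, at -2.78 (-2.94 to -2.63) and -3.43 (-3.56 to -3.29) in the same order. Of the pyruvate dehydrogenase genes 4 were called higher in IP and 1 lower with the label shGpr151 (median 0.84), and 3 and 1 in control (median 0.71). Pdhb, an E1 subunit, was higher at 1.12 (0.80 to 1.45) and 1.21 (0.88 to 1.55), Dlat, the E2 subunit, at 1.03 in both, and Pdha1, the other E1 subunit, at 0.65 in both. Dld was the 1 lower gene of that list, at -3.46 (-3.63 to -3.28) and -3.89 (-4.06 to -3.73), and was also lower on total counts.

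Markers of cell types show what each lysate held. Of 16 sensory neuron markers 15 were in the table, and they summed to 17357 CPM in IP and 1322 CPM in Input with the label shGpr151, and to 17866 CPM in IP and 1142 CPM in Input in control. Uchl1, an abundant neuronal hydrolase, made up 60.6% of the Input sum with the label shGpr151 and 51.0% in control. Without it the other 14 markers summed to 520.6 CPM in Input with the label shGpr151 and 559.9 CPM in control, so the direction of the sum rests on that gene. In Input 2 of the 15 markers were called higher and 3 lower with the label shGpr151 (median -0.17), beside 8.31% and 8.66% of tested genes. Satellite glia markers, 8 of 8, summed to 395 CPM in Input with the label shGpr151 and 403 CPM in control, Schwann markers, 5 of 7, to 176 and 194 CPM, and macrophage markers, 11 of 12, to 496 and 466 CPM. Fabp7, a fatty acid binding protein, made up 60.6% of the satellite glia sum with the label shGpr151 and 45.5% in control, and without it the other 7 summed to 155.5 and 219.6 CPM. Fibroblast markers, 7 of 8, summed to 307 and 361 CPM, and endothelial and mural markers, 6 of 8, to 222 and 168 CPM. In IP the same lists summed to 2048 and 1838, 1257 and 1334, 569 and 542, 843 and 675, and 285 and 312 CPM, in the same order of lists and labels. Between the Input libraries 3 of 5 tested endothelial and mural markers were called higher with the label shGpr151, and 0 lower. These were the mural genes Tagln (0.44), Myl9 (0.44) and Acta2 (0.31), while endothelial Cdh5 was at -0.34 and not called. Counts of markers called in Input stand beside 8.31% of tested genes higher and 8.66% lower. Of 8 satellite glia markers 1 was called higher (Fabp7, at 0.37) and 3 lower, and of 7 fibroblast markers 0 higher and 2 lower. Of 8 skeletal muscle and 5 erythroid markers, 0 were among the genes analysed. The part of cell make-up in the glycolytic ratios was not tested.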

How the data were processed

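The 12 samples are titled as adult DRG neuron, and their columns are treated here as 4 libraries. Per the labels' protocols the samples were sequenced as barcoded cDNA on nanopores. Tools and builds listed in the submitters' processing notes were minimap2, Salmon, GRCm39 and mm39 (versions unstated). Deposited values are raw counts per gene, the lowest being 1, so a gene at 0 in some column is not listed. Strand use and the handling of near-identical copies are unstated. Symbols matched 9061 of 9073 identifiers.

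edgeR 4.0.16 (R 4.3.3) was fitted to all 12 columns with 1 mean per group (TMM, filterByExpr at a minimum count of 10, glmQLFTest). Its common BCV of 1.22% reflects noise between columns, so no p-value of a gene is given. Intervals are exact conditional binomial (Clopper-Pearson) for ratios, Wald for differences of ratios and exact binomial for shares. They cover counting error only, because each group is treated as 1 library. Reads amplified by PCR and lacking molecular identifiers are not separate molecules, so the intervals may be too narrow even for that error. Alternatives were RLE, total counts, DESeq2 1.42.0, limma-voom (limma 3.58.1), other filters, the compared groups alone, a replicate block, assumed BCVs of 10% and 20%, columns left out and, added after seeing the data, Eno1 summed with Eno1b and marker sums without the most abundant marker. The fit was tested on simulated counts with counting noise alone, which cannot show how calls behave when replicates vary. Named genes were the 10 members, Gpr151, listed isozymes and, per list and comparison, up to 4 genes with the smallest p. Members and lists were chosen with earlier results of these data known. Figures used matplotlib 3.10.9.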

Additional observations from a re-analysis of the deposited data

Results flagged for a closer look

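The difference between the hairpin ratio in IP and that in Input, the shGpr151-labelled library over control in each, was called by edgeR's interaction term for 8 of the 10 members, 5 higher and 3 lower, beside 5.41% and 8.82% of tested genes. Its log2 values were 1.75 for Pfkl, 0.60 for Pkm, 0.47 for Pgam1, 0.41 for Pgk1, 0.32 for Eno1, -0.50 for Aldoa, -0.62 for Ldha and -1.10 for Tpi1. With Eno1b added, Eno1 was at -0.19 (-0.35 to -0.035) and not called, and with summed libraries and an assumed BCV of 10% none of the 8 was called. Calls compare libraries with no replicate of a condition, and the call for Pfkl rests on 94 and 60 counts in IP and 19 and 33 in Input.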

How the results depend on the processing

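DESeq2 called 1 member higher between the IP libraries, where edgeR called 3, and 1 with a higher hairpin ratio in IP than in Input, where edgeR called 5 and RLE left 3. Between the IP libraries RLE also called Aldoa lower. With an assumed BCV of 10% or 20%, 0 members were called in either direction between the IP libraries and for the difference of hairpin ratios. In Input 1 was called higher at 10% and 0 at 20%, and 0 lower at both. In IP over Input with the label shGpr151, 4 were called higher at 20%. On total counts 0 were lower in IP in either treatment, with medians of 3.05 with the label shGpr151 and 3.09 in control. In control 1 was lower under DESeq2, limma-voom, both BCVs, a floor of 20 mean counts and no filter. The control median was 1.29 with that floor, where Pfkl was not tested. With Eno1 and Eno1b summed, added after seeing the data, the median with the label shGpr151 was 0.67, and Eno1 took the other sign in Input (0.03759) and for the difference of hairpin ratios (-0.1963). Gapdh changed sign between the IP libraries (RLE, -0.0003752), in Input (RLE 0.02391, total counts 0.01961), in the difference (RLE, -0.02428) and in IP over Input on total counts (1.059 with the label shGpr151, 1.016 in control). Gpi1 did so in IP over Input with the label shGpr151 (RLE, -0.05313) and, on total counts in control, together with Pfkl (2.141 and 1.442). The cause of these changes was not tested beyond the scaling itself.

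With 1 column left out in turn, members called numbered 2 higher and 2 to 3 lower between the IP libraries, 3 and 2 to 3 in Input, 8 and 1 in IP over Input with the label shGpr151, 7 and 1 to 2 in control, and 2 to 4 and 3 for the difference. Gapdh ranged -0.03026 to 0.05312 between the IP libraries, -0.01684 to 0.01138 in Input and -0.08133 to 0.03503 for the difference. Gpi1 ranged -0.002454 to 0.07536 in IP over Input with the label shGpr151, -0.09901 to 0.1118 in control and -0.07553 to 0.1183 for the difference. Same-numbered columns of different groups correlated at -0.0381 to 0.034 over 18 pairs, so numbers do not pair them. With the replicate block no count of members called moved in any comparison. With the compared groups alone in the fit, Pfkl was left untested in Input. Depth limits Pfkl most, with 19 to 94 counts per library.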

Other observations

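Of 16 citric acid cycle genes, 1 was called higher and 3 lower with the label shGpr151 in IP, beside 3.72% and 4.97% of tested genes, and 12 were not called (median -0.028, all tested genes 0.0035). In Input 3 were called higher and 3 lower, beside 8.31% and 8.66% of tested genes, and 10 were not called (median -0.016, all tested genes -0.066). Mdh2, the mitochondrial malate dehydrogenase, was lower in IP at -0.21 (-0.30 to -0.11) and higher in Input at 0.57 (0.39 to 0.75). Sdhb, the iron-sulphur subunit of succinate dehydrogenase, was likewise lower in IP at -0.29 (-0.39 to -0.19) and higher in Input at 0.45 (0.31 to 0.58). Suclg1, a subunit of succinyl-CoA ligase, was lower in both, at -0.26 (-0.40 to -0.13) in IP and -0.39 (-0.50 to -0.28) in Input. Cs, citrate synthase, was higher in IP at 0.21 (0.078 to 0.34). Of 15 tested genes of NADH shuttles and side branches, 1 was higher in IP (median -0.073) and 2 were higher and 2 lower in Input (median 0.23), against the same shares of tested genes. Slc25a12, the aspartate/glutamate carrier, was higher in IP at 0.26 (0.098 to 0.42). In Input, Mdh1, the cytosolic malate dehydrogenase, was higher at 0.69 (0.44 to 0.95) and Hagh, which acts after Glo1 in clearing methylglyoxal, at 0.55 (0.23 to 0.89). Glo1 itself was lower in Input at -0.32 (-0.37 to -0.26), as was Phgdh, the first enzyme of serine synthesis, at -0.58 (-0.89 to -0.28).

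Of 9 genes of glycogen handling and gluconeogenesis, 0 were called between the IP libraries (median -0.016, all tested genes 0.0035). Of tested genes 3.72% were called higher there and 4.97% lower. In Input 0 were called higher and 4 lower with the label shGpr151 (median -0.31, all tested genes -0.066), beside 8.31% and 8.66%. Pygb, the brain glycogen phosphorylase, was at -0.77 (-1.34 to -0.22), and Gys1, glycogen synthase, at -0.31 (-0.40 to -0.21). In IP over Input 3 of the 9 were called higher and 6 lower in each treatment, beside 33.6% and 33% of tested genes with the label shGpr151 and 32.5% and 32.8% in control. The medians were -1.504 with the label shGpr151 and -1.37 in control, and on total counts 0.69 and 0.80. Pygb was among those higher, at 2.05 (1.60 to 2.52) with the label shGpr151 and 1.37 (1.03 to 1.73) in control. Gys1 was at -4.84 (-5.10 to -4.59) with the label shGpr151 and -5.01 (-5.23 to -4.80) in control, and was lower in IP on total counts too. Of 7 tested pentose phosphate genes, Taldo1, transaldolase, was the 1 called in Input, higher at 0.33 (0.17 to 0.48), and 0 were called in IP (medians 0.11 and -0.079). Of 10 regulators of glycolysis, Prkag1, a subunit of the AMP-activated kinase, was the 1 called in Input, lower at -0.96 (-1.60 to -0.34), and 0 were called in IP (medians -0.42 and 0.025). With 8.31% of tested genes called higher in Input and 8.66% lower, 1 of 7 or 1 of 10 is near the general share.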
